A study of Mus musculus with 21 samples.

Results

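KO1 and KO2 are separate knockout lines of the mouse prostate cancer cell line Myc-CaP, made with CRISPR-Cas9 and the same guide RNA against Ern1, the gene of IRE1α. Their RNA was compared in culture over all genes, and the differences were then followed into tumours grown from the same lines. The comparison used 2 KO1 and 2 KO2 cell libraries, chosen by their labels, of the 21 libraries in the series, with 2 libraries of wild-type (WT) Myc-CaP cells as the outside reference. Myc-CaP came from a prostate tumour of a mouse with a human MYC transgene under a probasin promoter, which all groups therefore share. All cells were grown in DMEM with 10% fetal bovine serum. The tumours were grown in FVB mice, with 3 from KO1, 3 from KO2 and 4 from WT cells. A further knockout line, KO3, gave 2 cell and 3 tumour libraries, which entered the fits only to help estimate the spread. The labels do not say whether a knockout line is a single clone, and WT is 1 line that is not stated to have passed through the same steps. The sources do not state that replicate cell libraries are separate cultures, so a p-value reflects only the spread among these libraries, which may be technical.

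IRE1α sits in the membrane of the endoplasmic reticulum (ER) and senses unfolded protein. Its RNase cuts Xbp1 mRNA, and the religated mRNA encodes XBP1s, a transcription factor that raises ER chaperones, protein transport and degradation genes. Lines made with the same guide share the targeted gene but can differ in other genes. The guide is shown because it is what KO1 and KO2 have in common, and its target site is shown with the adjoining PAM, which Cas9 needs to cut, in capitals.
guide: gcttgcatgctgttagcaag
site: gcttgcatgctgttagcaagAGG
The site lies in exon 2 of Ern1 (ENSMUSG00000020715), in coding sequence on the minus strand, at chr11:106458939-106458961 of GRCm38.

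The targeted gene was read first. Ern1 mRNA, in CPM, the counts scaled to library size, was at 176 and 194 in KO1 cells, 203 and 202 in KO2 cells and 121 and 138 in WT cells. The KO1 and KO2 libraries did not overlap, but their difference did not pass by edgeR (log2 fold change -0.13 ± 0.08 SE, adjusted p = 0.454). Counts per gene do not show a short indel, so they check nothing about the edit. Total counts ran from 18105538 to 24118563 in the KO1 and KO2 cell libraries and from 15994285 to 27497796 in their tumours. Among markers of a prostate epithelial line, the transcription factors Foxa1 and Hoxb13 and the keratin Krt8 were expressed. The adhesion molecule gene Epcam had 0 counts in every KO1, KO2 and WT cell library, and Cdh1 and Krt18 were below 0.31 CPM in all of them. Krt18 has near-identical copies in the mouse genome, so its count is uncertain.

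Most genes had nearly the same level in both lines. Of 12254 genes tested, 368 (3.0%) differed at an adjusted p of 0.05 by edgeR, 168 (1.37%) higher and 200 (1.63%) lower in KO1. Of these, 95 (0.775%) differed by 2-fold or more and 36 by 4-fold or more. The median absolute log2 fold change over all genes tested was 0.12 between KO1 and KO2, against 0.26 between KO1 and WT and 0.26 between KO2 and WT. Against WT, 4675 genes (38.2%) passed in KO1, 17.7% higher and 20.5% lower, and 4616 (37.7%) in KO2, 17.4% higher and 20.2% lower. Those comparisons share the WT libraries. The count between the lines depended on single libraries and on the table used. It was 123 without KO1 replicate 1, 133 without KO1 replicate 2, 553 without KO2 replicate 1, 144 without KO2 replicate 2, 98 in the length-scaled table and 932 with no filter on low counts.

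**Figure D1:**
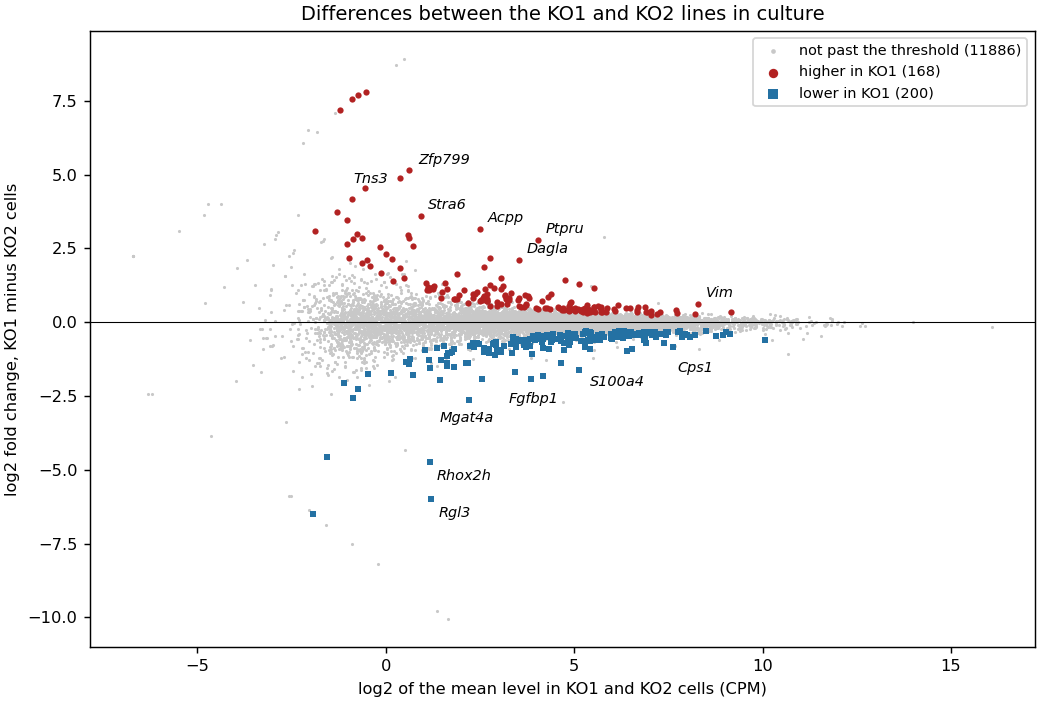
Each point is a gene tested in cells, with the log2 of its mean level in KO1 and KO2 cells (CPM) on the x axis and the log2 fold change, KO1 minus KO2, on the y axis. Red circles are the 168 genes higher and blue squares the 200 genes lower in KO1 by edgeR, and grey points did not pass. Differences of 4-fold or more were mostly in genes of low level.

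The WT libraries show which line stood apart. Of the 368 genes, 115 passed against WT in KO1 alone and 112 in KO2 alone, so neither line held most of the departures. Another 128 passed in both lines, 120 of them on the same side of WT and 8 on opposite sides, and 13 passed in neither. The fitted WT level lay between the lines for 150 genes.

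The gene with the largest rise among genes averaging 2 or more on the log2 CPM scale was Ptpru, a receptor tyrosine phosphatase. It was at 27.9 and 29.7 CPM in KO1 cells, 4.39 and 3.98 CPM in KO2 cells and 5.07 and 5.00 CPM in WT cells, a log2 fold change of 2.79 ± 0.12 (SE, adjusted p = 6.36e-07 by edgeR). KO2 was near WT, and KO1 stood apart. Dagla, a lipase that makes an endocannabinoid, was above WT in KO1 and below it in KO2, with 16.9 and 21 CPM in KO1 cells, 3.74 and 5.04 CPM in KO2 cells and 6.09 and 7.01 CPM in WT cells. Ggh, which trims folate polyglutamates, had 11.3 and 11.2 CPM in KO1 cells, 2.82 and 2.21 CPM in KO2 cells and 19.3 and 16.9 CPM in WT cells, so that KO2 was farther from WT. Xdh, xanthine dehydrogenase of purine breakdown, was far below WT in both lines, with 8.80 and 10.4 CPM in KO1 cells and 2.49 and 2.82 CPM in KO2 cells against 69.7 and 75.0 CPM in WT cells. The log2 fold changes of Ggh, Dagla and Xdh between the lines were 2.16, 2.11 and 1.86.

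The other genes among the 12 largest rises had log2 fold changes of 1.13 to 1.51. They included the liver glycogen phosphorylase Pygl at 12.4 and 12.3 CPM in KO1 cells, 4.33 and 4.38 CPM in KO2 cells and 13.7 and 14.8 CPM in WT cells. The peroxiredoxin Prdx6 was at 64.1 and 62.3 CPM in KO1 cells, 29.6 and 27.5 CPM in KO2 cells and 59.8 and 56.3 CPM in WT cells. In both genes KO1 lay near WT and KO2 below it. The calcium sensor Syt7, the Rab regulator Tbc1d16, the endosomal ferrireductase Steap3, the keratin Krt76, the urea transporter Slc14a1 and Tmem254a made up the rest. Tmem254a has near-identical copies, so its count is uncertain, and it did not pass without KO1 replicate 1 (edgeR adjusted p = 0.0826). Krt76 did not pass without any 1 of the 4 libraries (adjusted p of 0.0729 to 0.260), and the other 10 passed without each in turn.

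Among the 12 largest falls, Fgfbp1, a carrier of fibroblast growth factors, was at 6.53 and 5.46 CPM in KO1 cells, 22.9 and 22.7 CPM in KO2 cells and 17.6 and 15.4 CPM in WT cells. Its log2 fold change was -1.94 ± 0.12 (SE, adjusted p = 6.1e-06 by edgeR). Bst1, a surface enzyme that uses NAD, was at 2.49 and 2.46 CPM in KO1 cells, 9.37 and 9.31 CPM in KO2 cells and 12 and 11.3 CPM in WT cells. In both genes KO1 was the line farther from WT. S100a4, a calcium-binding protein, was graded, at 17.7 and 16.9 CPM in KO1 cells, 57.0 and 48.6 CPM in KO2 cells and 174 and 153 CPM in WT cells. Vil1, the actin bundler villin, was above WT in both lines, at 4.25 and 5.89 CPM in KO1 cells and 16.1 and 16.8 CPM in KO2 cells against 2.51 and 2.72 CPM in WT cells. Fbln2, a matrix fibulin, was near WT in KO1 and above it in KO2, with 12.4 and 15.5 CPM in KO1 cells, 34.7 and 38.7 CPM in KO2 cells and 14.4 and 14.7 CPM in WT cells.

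Krt19, S100a7a, the transglutaminase Tgm5, the semaphorin Sema3b, the organic anion exporter Abcc3, Zrsr1 and the matrix protein Papln were the other large falls, with log2 fold changes of -1.82 to -1.02. S100a7a belongs to a family of close copies. Zrsr1 did not pass without KO1 replicate 2 (edgeR adjusted p = 0.0539) and Papln not without KO1 replicate 1 (edgeR adjusted p = 0.0572). The other 10 of the 12 passed without each cell library in turn.

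**Figure D2:**
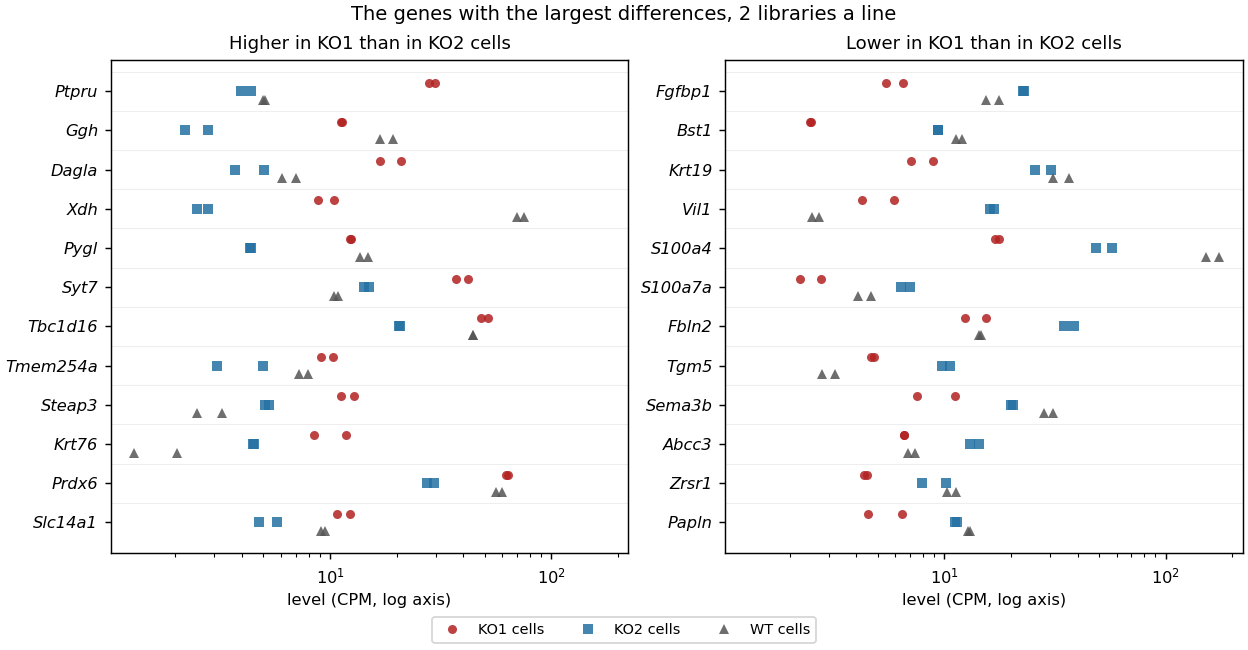
Levels (CPM, log axis) of the 12 genes with the largest rises, left, and the 12 with the largest falls, right, in KO1 (red circles), KO2 (blue squares) and WT (grey triangles) cells, 1 point a library. The 24 genes were picked for their difference between these libraries, so that KO1 and KO2 libraries do not overlap for any of them follows from the choice. For 14 of them both WT libraries lie outside the range of the KO1 and KO2 libraries. Neither count was made over all genes tested.

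Some genes were near silent in 1 line, at 3 counts or fewer over both of its libraries. Leaving out predicted genes and symbols shared by several genes, there were 8 such genes in KO2 and 3 in KO1 among the 368. The same count over all genes tested was not made. Zfp799, a zinc finger gene, had 138 counts in KO1 cells and 3 in KO2 cells, a ratio of 38.9 (exact 95% interval for counting error 13 to 191). Its level was 2.80 and 3.23 CPM in KO1 cells, 0.108 and 0.0503 CPM in KO2 cells and 4.54 and 4.73 CPM in WT cells. The opposite case was Rgl3, a relative of Ral exchange factors, with 3 counts in KO1 cells and 176 in KO2 cells, a ratio of KO2 over KO1 of 69.3 (23.3 to 339). It stood at 0.0518 and 0.0770 CPM in KO1 cells, 4.33 and 4.83 CPM in KO2 cells and 4.83 and 4.51 CPM in WT cells. In these 2 genes the line that was not silent lay at or not far below WT.

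Zfp30, a zinc finger gene of the KRAB family, had 48 counts in KO1 cells and 2 in KO2 cells, and was at 0.725 and 1.31 CPM in KO1 cells, 0.108 and 0 CPM in KO2 cells and 1.93 and 1.63 CPM in WT cells. Nol3, an inhibitor of apoptosis, had 62 counts in KO1 cells and 2 in KO2 cells, and the aldo-keto reductase Akr1c12 had 42 counts in KO1 cells and 3 in KO2 cells. Tns3, a tensin of focal adhesions, was at 2.90 and 2.15 CPM in KO1 cells, 0.108 and 0.0503 CPM in KO2 cells and 0 in both WT libraries, so KO1 was the line away from WT. Mmp2, a gelatinase, had 1 count in KO1 cells, 25 in KO2 cells and 0 in WT cells, and Zkscan7 had 0 in KO1 cells and 20 in KO2 cells. Rpl17-ps5, a pseudogene with close copies, had 56 counts in KO1 cells and 0 in KO2 cells. Zfp799, Tns3, Nol3 and Rgl3 passed without each cell library in turn. Zfp30 lost its call without KO1 replicate 2 (edgeR adjusted p = 0.118) and without KO2 replicate 2 (0.137), Akr1c12 without the same 2 libraries (0.0877 and 0.113), Zkscan7 without any 1 of the 4, Rpl17-ps5 without 3 of them and Mmp2 without KO1 replicate 1, KO1 replicate 2 or KO2 replicate 2 (not tested without KO2 replicate 1). Zinc finger and Akr1c genes have relatives of similar sequence, so the division of reads among them is uncertain.

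The upstream sequences of Zfp799, Zfp30 and Rgl3 are shown because each was near silent in 1 line and differed in the same direction in tumours. The 250 bases before the start are from RefSeq on GRCm38.p6, 5′ to 3′ on the strand of the gene, with each CG, the letters at which DNA is methylated in mammals, in capitals.
Zfp799: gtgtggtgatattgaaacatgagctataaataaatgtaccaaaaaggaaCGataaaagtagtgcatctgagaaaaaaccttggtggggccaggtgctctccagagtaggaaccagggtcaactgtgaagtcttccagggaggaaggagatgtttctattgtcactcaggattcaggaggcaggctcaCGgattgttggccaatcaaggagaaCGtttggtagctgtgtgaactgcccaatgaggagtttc
Zfp30: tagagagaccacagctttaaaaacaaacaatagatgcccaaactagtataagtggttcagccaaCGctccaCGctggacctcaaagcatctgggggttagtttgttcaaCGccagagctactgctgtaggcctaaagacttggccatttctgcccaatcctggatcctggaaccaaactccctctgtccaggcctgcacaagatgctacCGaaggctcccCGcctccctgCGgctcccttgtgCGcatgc
Rgl3: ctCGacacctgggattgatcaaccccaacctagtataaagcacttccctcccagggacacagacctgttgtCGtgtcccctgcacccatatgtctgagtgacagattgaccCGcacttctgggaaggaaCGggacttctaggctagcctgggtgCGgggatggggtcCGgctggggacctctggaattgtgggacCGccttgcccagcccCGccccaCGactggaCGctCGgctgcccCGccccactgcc
They lie at chr17:32830262-32830511 on the minus strand, chr7:29783718-29783967 on the plus strand and chr9:21989454-21989703 on the minus strand. They hold 3, 7 and 12 CG, and 71.0%, 46.3% and 33.5% of the 32851 windows of that length in the table hold as many or more. Methylation was not measured here.

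Calls among genes downstream of IRE1α were too few to set apart from the 3.0% called among all genes tested. Of 41 tested XBP1s target genes none passed between KO1 and KO2 by edgeR (median -0.020, range -0.42 to 0.30 on the log2 scale), and DESeq2 called 1. At an unadjusted p under 0.05 by edgeR there were 10 (24.4%), against 16.7% of all genes. Against WT, 40 were lower in KO1 and 38 lower in KO2, with medians of -1.23 and -1.17. Of all genes, 20.5% and 20.2% were lower. Of 13 ATF6 target genes only Ero1lb, an ER oxidase, passed between the lines, at 4.66 and 4.42 CPM in KO1 cells, 2.44 and 2.77 CPM in KO2 cells and 14.6 and 15 CPM in WT cells. That call was lost without any 1 of the 4 libraries (adjusted p of 0.0727 to 0.126). Xbp1 itself was at 55.8 and 54.5 CPM in KO1 cells, 68.0 and 76.0 CPM in KO2 cells and 117 and 115 CPM in WT cells, with a log2 fold change of -0.39 ± 0.08 between the lines (SE, adjusted p = 0.0270 by edgeR). It did not pass without KO1 replicate 1, KO1 replicate 2 or KO2 replicate 2 (adjusted p of 0.125, 0.142 and 0.165). The co-chaperone Dnajb9, the chaperone Hspa5 and the stress factor Ddit3 did not pass between the lines, with log2 fold changes of -0.42, -0.09 and 0.17.

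Among 27 tested ATF4 target genes, Chac1, which degrades glutathione, was lower in KO1, at 65.3 and 62.3 CPM in KO1 cells, 84.7 and 101 CPM in KO2 cells and 26.9 and 27.1 CPM in WT cells. It lost the call without KO1 replicate 1, KO1 replicate 2 or KO2 replicate 2 (adjusted p of 0.0847, 0.111 and 0.0970). The list's median against WT was 0.57 in KO1 and 0.78 in KO2. None of 23 cholesterol synthesis genes, 20 aminoacyl-tRNA synthetase genes, 24 NRF2 genes, 34 oxidative phosphorylation genes or 32 autophagy and lysosome genes passed between the lines by edgeR. At an unadjusted p under 0.05 by edgeR there were 5, 2, 3, 4 and 4 of them (21.7%, 10.0%, 12.5%, 11.8% and 12.5%), against 16.7% of all genes. DESeq2 called 0, 1, 1, 1 and 4. edgeR called 3.0% of all genes, so the lack of calls in lists of this size does not set them apart. In all, 15 of 42 pathway lists had no member past the threshold. They include lists with few or no members tested, such as Y-linked genes (0) and germline genes (4).

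Several keratins, the intermediate filaments of epithelium, were lower in KO1. Of 11 tested keratins on the list 5 fell and none rose, against 3.0% of all genes called, and their median log2 fold change was -0.49. Krt6a, a keratin of stressed and stratified epithelium, was at 58.2 and 69.7 CPM in KO1 cells, 122 and 118 CPM in KO2 cells and 136 and 134 CPM in WT cells. Krt19, a simple epithelial keratin, was at 8.86 and 7.08 CPM in KO1 cells, 25.6 and 30.3 CPM in KO2 cells and 36.5 and 31.1 CPM in WT cells. Krt80 was at 28.7 and 33.2 CPM in KO1 cells, 47.0 and 50.5 CPM in KO2 cells and 61.1 and 60.1 CPM in WT cells. In these 3 genes KO2 lay below or near WT and KO1 lower still, with log2 fold changes between the lines of -0.91, -1.82 and -0.65, and all 3 passed without each library in turn. Krt4 and Krt7, singled out after their values were seen to complete the 5, had log2 fold changes of -0.48 and -0.49. Krt8, a luminal keratin, did not pass (31.1 and 32.8 CPM in KO1 cells, 28.1 and 26.8 CPM in KO2 cells, 22.6 and 24.0 CPM in WT cells).

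Krt4, Krt6a, Krt7 and Krt80 lie in the type II keratin cluster on chromosome 15, and Krt19 on chromosome 11. The stretch of 41 tested genes with the lowest median on chromosome 15, picked for that value, ran from 99715543 to 102281754 (GRCm38). It had a median log2 fold change of -0.26, with 8 genes called. These were Krt80, Krt7, Krt6a, Krt4, Krt79 and Krt78, all lower, and Krt76 and the integrin subunit Itgb7, both higher in KO1. Krt78 was at 26.8 and 33.2 CPM in KO1 cells, 50.7 and 62.5 CPM in KO2 cells and 61.0 and 53.6 CPM in WT cells. Krt76 went against its neighbours, at 11.9 and 8.5 CPM in KO1 cells, 4.5 and 4.53 CPM in KO2 cells and 2.03 and 1.30 CPM in WT cells. Itgb7 and Krt79 were named after their values were seen, with log2 fold changes of 2.15 and -0.96. Keratins of 1 type are similar in sequence, so the division of reads among them is uncertain.

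**Figure D3:**
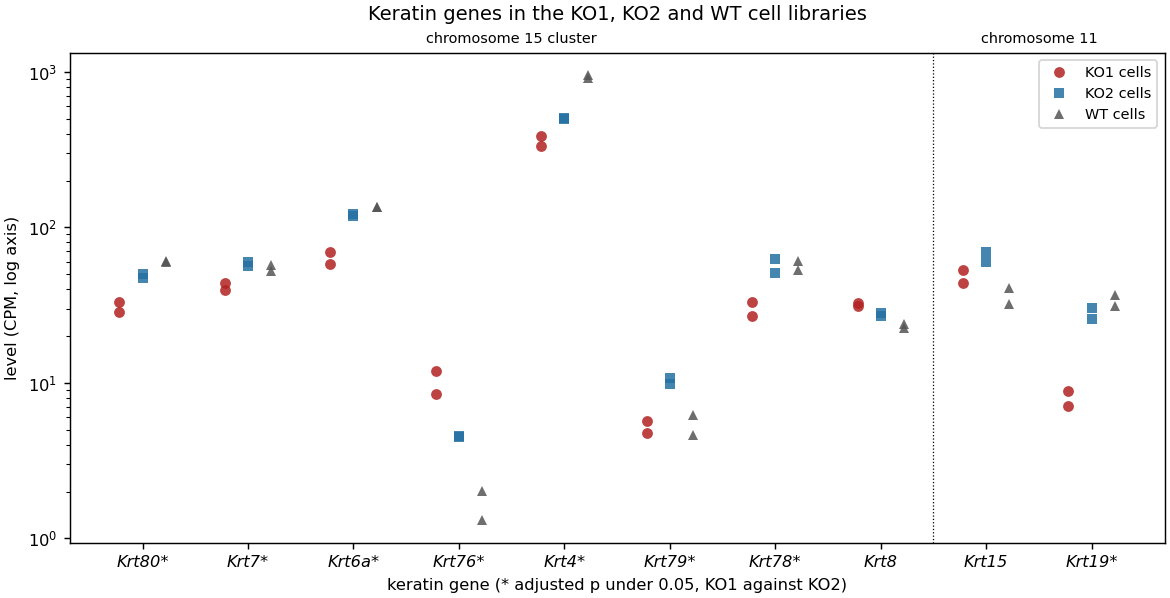
Levels (CPM, log axis) of keratin genes in KO1 (red circles), KO2 (blue squares) and WT (grey triangles) cells, 1 point a library, with the genes of the chromosome 15 cluster left of the dotted line and an asterisk for an adjusted p under 0.05 by edgeR. KO1 libraries lie below KO2 libraries for all genes shown except Krt76 and Krt8. Krt76, Krt78 and Krt79 come from the stretch of chromosome 15 picked for its low median. Some of the 11 tested keratins on the list are not shown, and log2 fold changes on that list ran from -1.99 to 0.32. Overlap was not counted over all genes.

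Whole chromosomes leaned by small amounts. On chromosome 15, 28 of 479 tested genes were called (5.85%), 5 higher and 23 lower in KO1, and the median log2 fold change of all its genes was -0.10. On chromosome 19, 26 of 434 genes were called (5.99%), 5 higher and 21 lower, with a median of -0.091 and the lowest stretch of 41 genes, at -0.30, from 5364638 to 6062472. On chromosome 1, 41 of 704 were called (5.82%), 24 higher and 17 lower, with a median of 0.063. Relative to the mean of all cell libraries and to the median of all genes, the chromosome 15 median was -0.025 and -0.031 in KO1 libraries, 0.069 and 0.079 in KO2 libraries and -0.060 and -0.068 in WT libraries on the log2 scale. That of chromosome 19 was 0.0020 and -0.018 in KO1, 0.071 and 0.094 in KO2 and -0.041 and -0.040 in WT. On both chromosomes KO2 was the line above the others. In tumours the same medians, less that of all genes, were -0.0061 for chromosome 15, -0.020 for chromosome 19 and 0.087 for chromosome 1. Chromosome X was at 0.13 in tumours and 0.048 in cells. The lowest stretches of chromosomes 15 and 19 had tumour medians of -0.013 and -0.083. The highest stretches, also picked for their value, were on chromosome 1 (185363044 to 195131586, 0.28 in cells and 0.20 in tumours) and chromosome 11 (69901072 to 72047370, 0.24 and 0.19).

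Genes of DNA replication and cell division leaned higher in KO1 cells. Of 36 tested members 5 rose in KO1 and none fell, with a median log2 fold change of 0.25, where 1.37% of all genes tested were higher and 1.63% lower. At an unadjusted p under 0.05 by edgeR there were 26 (72.2%), against 16.7% of all genes. Against WT 31 of the 36 were higher in KO1 and 24 in KO2, where 17.7% and 17.4% of all genes were higher. Cenpf, a kinetochore protein, was at 53.1 and 55.5 CPM in KO1 cells, 38.4 and 37.5 CPM in KO2 cells and 18.4 and 16.8 CPM in WT cells. Rrm2, a subunit of ribonucleotide reductase, was at 118 and 113 CPM in KO1 cells, 83.9 and 90.7 CPM in KO2 cells and 92.3 and 94.0 CPM in WT cells, and Bub1, a checkpoint kinase, at 32.8 and 32.3 CPM in KO1 cells, 25.4 and 23.5 CPM in KO2 cells and 16.8 and 14.6 CPM in WT cells. The differences were small, at log2 fold changes of 0.52, 0.41 and 0.42. Cenpf lost its call without KO1 replicate 2 (edgeR adjusted p = 0.0576), Rrm2 without KO1 replicate 1 (0.0873), and Bub1 without KO1 replicate 1, KO1 replicate 2 or KO2 replicate 2 (0.166, 0.127 and 0.173). Top2a and Aurkb were the other 2 that rose, and they, like the further members named beyond 3 in a list, were named after their values were seen.

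Axon guidance genes had 7 called members of 30 tested, 1 higher and 6 lower in KO1, with a list median of -0.039, against 1.37% of all genes higher and 1.63% lower. Sema5a, a transmembrane semaphorin, was at 0.725 and 0.731 CPM in KO1 cells, 2.82 and 2.32 CPM in KO2 cells and 14.8 and 15.8 CPM in WT cells. Ntn1, the secreted cue netrin, was at 0.466 and 0.539 CPM in KO1 cells, 1.52 and 1.86 CPM in KO2 cells and 9.18 and 7.28 CPM in WT cells. Sema3b was at 7.51 and 11.2 CPM in KO1 cells, 19.9 and 20.5 CPM in KO2 cells and 28.4 and 30.9 CPM in WT cells. All 3 were below WT in both lines and lower in KO1 than in KO2. Sema3f and the ephrin receptors Epha2 and Ephb3 also fell, and the semaphorin receptor Plxna3 rose. Ntn1 lost its call without KO1 replicate 1, KO1 replicate 2 or KO2 replicate 2 (adjusted p of 0.101, 0.0877 and 0.109).

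Of 20 tested Wnt pathway genes 4 fell and none rose, with a list median of -0.050, against 1.63% of all genes lower. They were the ligand Wnt7b, the receptors Fzd5 and Fzd2 and Lgr6, a receptor for R-spondins. Fzd5 was at 34.9 and 38.6 CPM in KO1 cells, 53.2 and 59.3 CPM in KO2 cells and 51.0 and 55.6 CPM in WT cells, a log2 fold change of -0.61 that passed without each library in turn. Wnt7b was at 80.9 and 83.7 CPM in KO1 cells, 103 and 116 CPM in KO2 cells and 79.1 and 74.5 CPM in WT cells, so that KO2 lay above the others. Wnt7b and Lgr6 lost their calls without KO1 replicate 1, KO1 replicate 2 or KO2 replicate 2 (adjusted p of 0.0766 to 0.123 and of 0.0706 to 0.181).

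Epithelial genes moved in both directions, with 2 of 19 higher and 3 lower and a median of -0.23, against 1.37% and 1.63% of all genes. Spint1, a membrane inhibitor of serine proteases, was at 0.829 and 1.35 CPM in KO1 cells, 3.74 and 4.98 CPM in KO2 cells and 5.41 and 4.83 CPM in WT cells. Prss8, a membrane serine protease, was at 11.4 and 8.89 CPM in KO1 cells, 16.9 and 17.3 CPM in KO2 cells and 29.3 and 27.1 CPM in WT cells. Both fell in KO1, as did the tight junction gene Cldn4, while the desmosome gene Pkp2 and the factor Elf3 rose. The mesenchymal list had 1 of 11 genes higher and 1 lower, with a median of -0.065. The lower gene was S100a4, described among the largest falls. The higher gene was Vim, the filament protein vimentin, at 404 and 361 CPM in KO1 cells, 239 and 257 CPM in KO2 cells and 245 and 238 CPM in WT cells. Its log2 fold change was 0.62 ± 0.08 (SE, adjusted p = 0.00231 by edgeR). Vim and Spint1 passed without each library in turn, Prss8 lost its call without KO1 replicate 2 (edgeR adjusted p = 0.0539) and Pkp2 without KO1 replicate 1, KO1 replicate 2 or KO2 replicate 1 (0.0889, 0.126 and 0.0665).

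Of the prostate list 2 of 13 genes were higher in KO1 and none lower, against 1.37% of all genes higher. Acpp, prostatic acid phosphatase, was at 10.6 and 9.93 CPM in KO1 cells, 1.19 and 1.11 CPM in KO2 cells and 4.59 and 4.29 CPM in WT cells, a log2 fold change of 3.15 ± 0.19 (SE, adjusted p = 6.1e-06 by edgeR). WT lay between the lines. Sord, sorbitol dehydrogenase, was at 11.7 and 15 CPM in KO1 cells, 7.48 and 6.14 CPM in KO2 cells and 8.16 and 6.63 CPM in WT cells, and lost its call without KO1 replicate 2 or KO2 replicate 2 (adjusted p of 0.111 and 0.106). Among 14 surface proteins of progenitor cells, Psca was lower in KO1, at 128 and 129 CPM in KO1 cells, 214 and 200 CPM in KO2 cells and 321 and 310 CPM in WT cells. Cd24a was higher, at 54.4 and 54.4 CPM in KO1 cells, 39.4 and 37.2 CPM in KO2 cells and 79.0 and 81.3 CPM in WT cells. Both passed without each library in turn. Ceacam1 was also lower, and Ly6c1 was higher, a call lost without KO1 replicate 1 (edgeR adjusted p = 0.0501).

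Retinoid, steroid and xenobiotic genes had 3 called higher and 3 lower of 26, against 1.37% and 1.63% of all genes. Stra6, the cell's receptor for retinol-binding protein, was at 3.99 and 3.12 CPM in KO1 cells, 0.325 and 0.252 CPM in KO2 cells and 101 and 101 CPM in WT cells. Adh1, an alcohol dehydrogenase, was at 5.49 and 6.08 CPM in KO1 cells, 2.65 and 2.82 CPM in KO2 cells and 27.1 and 26.1 CPM in WT cells. Both were far below WT in each line and lower in KO2. Akr1c12 was the third called higher, and Ugt1a6a, Cyp26b1 and Aldh3b1 were lower in KO1. Ugt1a6a shares exons with its neighbours, so its count is uncertain, and it lost its call without KO1 replicate 1 or KO1 replicate 2 (adjusted p of 0.058 and 0.0691).

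Basement membrane genes had 2 called higher of 12 and none lower, MHC class I genes 2 higher of 20 and interferon-stimulated genes 2 higher of 25, against 1.37% of all genes higher. The laminin chain Lamb3 was at 2.69 and 2.96 CPM in KO1 cells, 0.379 and 0.554 CPM in KO2 cells and 1.93 and 1.90 CPM in WT cells, and passed without each library in turn. Lamb1 was at 1.76 and 2.35 CPM in KO1 cells, 0.596 and 0.554 CPM in KO2 cells and 2.85 and 2.93 CPM in WT cells, and lost its call without KO1 replicate 2 or KO2 replicate 2 (adjusted p of 0.0877 and 0.0817). Of the MHC class I genes, H2-K1 was at 64.8 and 59.3 CPM in KO1 cells, 39.0 and 46.7 CPM in KO2 cells and 83.0 and 86.5 CPM in WT cells, and lost its call without KO1 replicate 1 (edgeR adjusted p = 0.0971). The other was H2-M3, lost without KO1 replicate 2 or KO2 replicate 2 (0.0878 and 0.0712), and both belong to a family of similar genes whose reads may be divided uncertainly. The interferon-stimulated genes were Ifitm3 and Lgals3bp, and Ifitm3 lost its call without KO1 replicate 1, KO2 replicate 1 or KO2 replicate 2 (adjusted p of 0.0931 to 0.198).

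The tumours gave libraries that the cell comparison had not used. Between KO1 and KO2 tumours edgeR called 96 of 14483 genes (0.663%), of which 33 (0.228%) were higher and 63 (0.435%) lower in KO1. That count was 43, 13 and 14 without KO1 tumour replicates 1, 2 and 3, and 21, 23 and 15 without KO2 tumour replicates 1, 2 and 3. It was 702 by DESeq2, 617 with KO1 and KO2 tumours fitted alone, 166 with a replicate block and 57 in the length-scaled table. Of the 368 genes called in cells, 355 were tested in tumours and 258 of them (72.7%) had the same sign, against 54.2% of 11545 genes not called in cells. Of the 355, 15 (4.23%) were called in tumours with the same sign, and none with the opposite sign. At 4-fold or more in cells 27 of 32 genes kept the sign and 7 (21.9%) were called in tumours. At under 2-fold, 191 of 268 kept the sign and 6 (2.24%) were called. The median ratio of the tumour to the cell log2 fold change was 0.35. Genes higher in KO1 cells kept their sign more often, at 141 of 161 (87.6%), than genes lower in KO1 cells, at 117 of 194 (60.3%), a difference that was not tested. The count of 15 became 4 without KO1 tumour replicate 2 or 3 or KO2 tumour replicate 1 or 3, 5 without KO2 tumour replicate 2 and 6 without KO1 tumour replicate 1. It was 52 by DESeq2, 37 with KO1 and KO2 libraries alone and 5 in the length-scaled table.

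**Figure D4:**
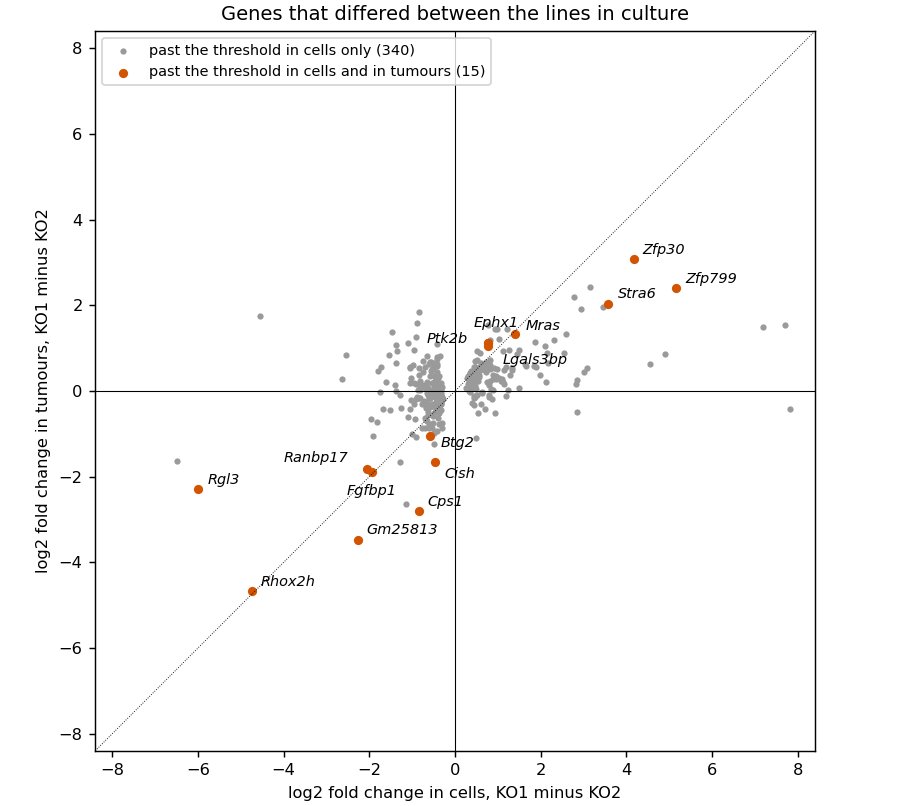
Each point is 1 of the 355 genes called between KO1 and KO2 cells and tested in tumours, with the log2 fold change, KO1 minus KO2, in cells on the x axis and in tumours on the y axis. The 15 orange points were also called in tumours by edgeR, the dotted line marks equal changes, and the median ratio of the tumour to the cell change is 0.35.

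Tumours also hold cells of the host, and in bulk RNA fewer cells of a type and less RNA per cell cannot be told apart. Summed levels of 9 fibroblast markers were 1910 to 2860 CPM in KO1 tumours, 702 to 955 CPM in KO2 tumours and 461 to 2520 CPM in WT tumours. Those of 10 macrophage markers were 946 to 1250 CPM in KO1 tumours, 572 to 774 CPM in KO2 tumours and 395 to 1060 CPM in WT tumours. Those of 10 skeletal muscle markers were 449 to 1120 CPM in KO1 tumours, 32.5 to 915 CPM in KO2 tumours and 13.7 to 4970 CPM in WT tumours. Fibroblast and macrophage sums of KO1 and KO2 tumours did not overlap, although no single marker of these 3 lists passed by edgeR. At an unadjusted p under 0.05 there were 5 fibroblast, 7 macrophage and 0 muscle markers, and DESeq2 called 3, 7 and 0. Of all 14483 genes tested in tumours, 2321 had such a p and DESeq2 called 702. Of 7 adipocyte markers 6 had such a p and DESeq2 called 5, with a median log2 fold change of 6.43. None passed by edgeR. Their sums overlapped, at 41.1 to 342 CPM in KO1 and 86.6 to 117 CPM in KO2 tumours. T cell and neutrophil sums, at most 8.91 CPM in these tumours, were higher in KO1 without overlap. Leukocyte, endothelial, erythroid, skin keratinocyte and nerve sums overlapped. The part of fibroblast, macrophage and adipocyte markers in the tumour results was not tested. Fits with a covariate were run for leukocyte and muscle markers only, in which the 15 genes became 18 and 21. In the KO1 and KO2 cell libraries the sums were at most 21 CPM for fibroblast markers, nearly all of it Pdgfra with Col3a1, Lum, Dpt and Pdgfrb at 0, and at most 10.6 CPM for macrophage markers.

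Zfp799, Zfp30 and Rgl3, near silent in 1 line of cells, differed in the same direction in tumours. Zfp799 was at 7.23, 4.71 and 4.36 CPM in KO1 tumours, 1.38, 0.961 and 0.711 CPM in KO2 tumours and 3.30 to 4.15 CPM in WT tumours, a log2 fold change of 2.40 between the lines (adjusted p = 0.00451 by edgeR). Zfp30 was at 0.784, 1.16 and 0.702 CPM in KO1 tumours, 0.106, 0.0960 and 0.0948 CPM in KO2 tumours and 0.641 to 1.65 CPM in WT tumours. Rgl3 was at 0.336, 0.222 and 0.301 CPM in KO1 tumours, 1.20, 1.97 and 1.14 CPM in KO2 tumours and 0.970 to 1.76 CPM in WT tumours. In each case the line that was near silent in culture was the low one in tumours, with no overlap between KO1 and KO2. Zfp799 passed without each tumour library in turn. Zfp30 and Rgl3 lost their calls without any 1 of the 6 (adjusted p of 0.0584 to 0.149 and of 0.0567 to 0.131).

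Rhox2h, a homeobox gene of a cluster on the X chromosome, was near absent outside KO2. In cells it was at 0.259 and 0.0770 CPM in KO1, 4.06 and 4.63 CPM in KO2 and 0.290 and 0.109 CPM in WT, and in tumours at 0.0560, 0.0554 and 0.251 CPM in KO1, 4.38, 2.50 and 2.99 CPM in KO2 and 0 to 0.116 CPM in WT. The log2 fold change was -4.75 in cells and -4.67 in tumours. It has near-identical copies in that cluster, so which copy was read is uncertain, and in tumours it lost its call without any 1 of the 6 libraries (adjusted p of 0.0501 to 0.104).

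Stra6 kept its order between the lines in tumours, with 53.4, 58.6 and 59.4 CPM in KO1 tumours, 15.2, 13.8 and 12.7 CPM in KO2 tumours and 5.14 to 14.3 CPM in WT tumours. KO1 tumours stood above both KO2 and WT tumours, whereas in culture both lines were far below WT. Cps1, which starts the urea cycle, was at 135 and 149 CPM in KO1 cells, 273 and 238 CPM in KO2 cells and 260 and 260 CPM in WT cells. In tumours it was at 12.4, 19.2 and 13.3 CPM in KO1, 89.4, 152 and 73.0 CPM in KO2 and 45.7 to 84.5 CPM in WT. Its log2 fold change was -0.84 in cells and -2.81 in tumours, and it was called in both without each library in turn. Stra6 lost its tumour call without any 1 of the 6 libraries (adjusted p of 0.0584 to 0.149).

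The other genes higher in KO1 in both were Ptk2b, a relative of focal adhesion kinase, Lgals3bp, a secreted galectin-binding protein, the epoxide hydrolase Ephx1 and the small GTPase Mras. Ptk2b was at 15, 17.8 and 17.5 CPM in KO1 tumours, 7.03, 7.64 and 8.68 CPM in KO2 tumours and 10.1 to 12.2 CPM in WT tumours. Lgals3bp was at 115, 140 and 124 CPM in KO1 tumours, 60.4, 59.4 and 62.8 CPM in KO2 tumours and 55.6 to 67.2 CPM in WT tumours. These 2 were called in tumours without each library in turn. In cells Lgals3bp was at 8.03 and 6.70 CPM in KO1, 3.85 and 4.73 CPM in KO2 and 8.79 and 8.80 CPM in WT, and lost its cell call without any 1 of the 4 libraries (adjusted p of 0.0522 to 0.167), and Ptk2b without KO1 replicate 2 or KO2 replicate 1 (0.147 and 0.0688).

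The other genes lower in KO1 in both were Fgfbp1, Ranbp17 of the importin family, the growth inhibitor Btg2, the cytokine signalling inhibitor Cish and the predicted gene Gm25813, named after its values were seen to complete the 15. Fgfbp1 was at 1.68, 2.66 and 1.70 CPM in KO1 tumours, 6.71, 6.53 and 9.20 CPM in KO2 tumours and 7.37 to 16.7 CPM in WT tumours. Btg2 was at 55.0, 47.6 and 50.5 CPM in KO1 tumours, 105, 105 and 107 CPM in KO2 tumours and 96.2 to 154 CPM in WT tumours. In both genes KO2 tumours overlapped WT tumours, and KO1 tumours lay below both. Fgfbp1 lost its tumour call without any 1 of the 6 libraries (adjusted p of 0.0501 to 0.0909) and Btg2 without 5 of them, all but KO1 replicate 1 (0.0614 to 0.0924). In tumours Ephx1, Mras and Cish were also lost without any 1 library, and Ranbp17 without 5 of 6 (adjusted p of 0.0524 to 0.154 over these 4 genes). In cells Mras and Ranbp17 were lost without any 1 library (0.056 to 0.208), Cish without KO1 replicate 1, KO1 replicate 2 or KO2 replicate 1 (0.0616 to 0.126) and Btg2 without KO1 replicate 1 (0.0826).

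**Figure D5:**
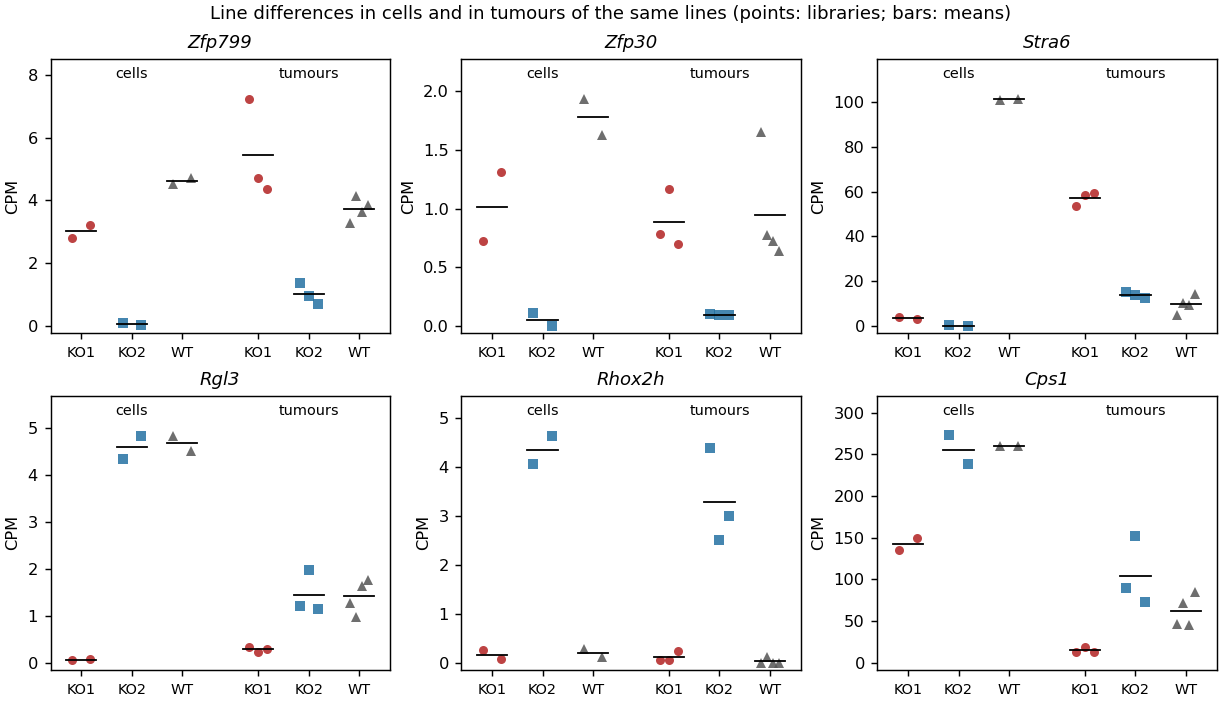
Levels (CPM) of 6 genes in cells and in tumours of KO1 (red circles), KO2 (blue squares) and WT (grey triangles), 1 point a library, with bars at the means. Zfp799, Zfp30 and Stra6 are higher in KO1 than in KO2 in both materials, and Rgl3, Rhox2h and Cps1 lower.

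Many large cell differences were not called in tumours. Ptpru was at 1.18, 2.83 and 1.45 CPM in KO1 tumours, 0.318, 0.480 and 0.379 CPM in KO2 tumours and 0.566 to 0.969 CPM in WT tumours, with a log2 fold change of 2.20 (adjusted p = 0.0706 by edgeR). Acpp was at 3.31, 3.66 and 5.26 CPM in KO1 tumours, 0.671, 0.768 and 0.806 CPM in KO2 tumours and 0.400 to 2.03 CPM in WT tumours, with a log2 fold change of 2.44 (adjusted p = 0.0578 by edgeR). In both genes KO1 and KO2 tumours did not overlap. None of 8 keratins tested in tumours passed by edgeR or DESeq2, 1 had an unadjusted p under 0.05 and their median was 0.11, where edgeR called 0.663% of all genes. Krt6a was at 23.9, 37.4 and 52.0 CPM in KO1 tumours, 45.6, 29.6 and 26.6 CPM in KO2 tumours and 22.9 to 49.1 CPM in WT tumours, groups that overlap. S100a4 was at 11.8, 10.2 and 6.66 CPM in KO1 tumours, 8.90, 7.73 and 8.20 CPM in KO2 tumours and 9.45 to 26.4 CPM in WT tumours. Of the 12 largest falls in cells, Sema3b, Fbln2 and Abcc3 were higher in KO1 than in KO2 tumours, with no overlap. Their log2 fold changes in tumours were 1.11, 1.07 and 0.53, not called by edgeR. S100a4 and Papln were also above 0, at 0.21 and 0.31. Fgfbp1, Bst1, Krt19, Vil1, Tgm5 and Zrsr1 stayed below 0, and S100a7a was not tested.

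Whether a line difference itself differed between tumours and cells was tested in 1 model of all 21 libraries. edgeR called 16 of 15173 genes (0.105%), 11 (0.0725%) with a more positive and 5 (0.0330%) with a more negative KO1 minus KO2 difference in tumours. Of the 16, 10 were called in cells, against 3.0% of all genes tested there, and 13 had opposite signs in cells and tumours. Genes called for a change in the difference are more likely to show both, so these counts add no separate evidence. Mgat4a, a Golgi enzyme that branches glycans, was at 1.04 and 1.46 CPM in KO1 cells, 8.94 and 7.05 CPM in KO2 cells and 11 and 11.9 CPM in WT cells, but at 7.06, 5.82 and 6.31 CPM in KO1 tumours, 5.72, 5.81 and 4.31 CPM in KO2 tumours and 4.6 to 9.14 CPM in WT tumours. Its difference changed by 2.99 ± 0.40 on the log2 scale (SE, adjusted p = 0.0128 by edgeR). Tns3, near silent in KO2 and WT cells, was at 19.3, 24.1 and 18.4 CPM in KO1 tumours, 11.6, 12 and 10.3 CPM in KO2 tumours and 12.2 to 21 CPM in WT tumours, and its difference changed by -3.97. All edgeR calls were lost without KO1 cell replicate 1, which left 1 KO1 cell library (DESeq2, on all libraries, called 104). The count was 1 without KO2 cell replicate 1 or 2 and 6 to 13 without each of the other 7 KO1 and KO2 libraries. The Mgat4a call was lost without KO1 cell replicate 1 or KO2 cell replicate 1 (0.202 and 0.0658), and the Tns3 call without KO1 cell replicate 1, either KO2 cell library or KO1 tumour replicate 3 (0.0524 to 0.259).

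Pard6g, a polarity protein, fell in KO1 cells, at 1.04 and 1.23 CPM in KO1, 3.36 and 3.37 CPM in KO2 and 3.72 and 4.83 CPM in WT. It was at 19.4, 15.6 and 17.9 CPM in KO1 tumours, 10.2, 9.75 and 9.67 CPM in KO2 tumours and 8.15 to 13.4 CPM in WT tumours. Krt78 and the thrombin receptor F2r also had differences below 0 in cells and above 0 in tumours, apart by 2.23 and 1.07 on the log2 scale. The calls of Pard6g and Krt78 were lost without any 1 of the 4 cell libraries, with adjusted p of 0.0657 to 0.217 and of 0.066 to 0.253 by edgeR. Krt78 was also lost without KO1 tumour replicate 3 or KO2 tumour replicate 1 or 3 (0.0787, 0.0568 and 0.0624), and F2r without KO1 cell replicate 1 or either KO2 cell library (0.0658 to 0.23).

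Rgs2, a brake on G protein signalling, was called in tumours and not in cells. It was at 486 and 392 CPM in KO1 cells, 383 and 405 CPM in KO2 cells and 375 and 370 CPM in WT cells, and at 70.7, 82.5 and 57.4 CPM in KO1 tumours, 165, 181 and 153 CPM in KO2 tumours and 231 to 300 CPM in WT tumours. Its difference changed by -1.34 ± 0.22 (SE, adjusted p = 0.0242 by edgeR), a call lost without KO1 cell replicate 1 or either KO2 cell library (adjusted p of 0.148 to 0.253) and without KO1 tumour replicate 3 or KO2 tumour replicate 1 or 2 (0.0568 to 0.066). Car14, a carbonic anhydrase, was at 9.27 and 7.77 CPM in KO1 cells, 5.85 and 5.84 CPM in KO2 cells and 11.2 and 11.7 CPM in WT cells, but at 13.8, 17.6 and 16.4 CPM in KO1 tumours, 27.5, 25.3 and 27.5 CPM in KO2 tumours and 10.7 to 12.4 CPM in WT tumours. It lost the call without KO1 cell replicate 1 or either KO2 cell library (0.117 to 0.253) and without KO2 tumour replicate 1 or 3 (0.0512 and 0.0609).

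Of the 96 genes called in tumours, 72 were tested in cells, and 51 of these (70.8%) had the same sign there. The share among genes not called in tumours was not counted. Among the 11545 genes not called in cells it was 54.2%. Notch1, a receptor of cell contact signalling, was at 16.1, 19.8 and 17.3 CPM in KO1 tumours, 5.97, 8.12 and 5.97 CPM in KO2 tumours and 8.15 to 14.2 CPM in WT tumours, and in cells at 44.4 and 50.6 CPM in KO1, 37.6 and 41.8 CPM in KO2 and 7.68 and 7.99 CPM in WT. Slc7a11, which imports cystine, was at 56.6, 27.1 and 35.8 CPM in KO1 tumours, 150, 296 and 133 CPM in KO2 tumours and 156 to 331 CPM in WT tumours, and in cells at 280 and 280 CPM in KO1, 289 and 268 CPM in KO2 and 159 and 157 CPM in WT. KO1 and KO2 cells overlapped for Slc7a11, while KO1 tumours lay below all others. Serpine2, a protease inhibitor, had 0 counts in every KO1, KO2 and WT cell library and was at 38.0, 62.5 and 55.3 CPM in KO1 tumours, 20.9, 14.7 and 23.1 CPM in KO2 tumours and 26.7 to 32.9 CPM in WT tumours (fibroblast marker sums were also higher in KO1 tumours). Serpine2 was called without each tumour library in turn, Notch1 lost its call without any 1 of the 6 (adjusted p of 0.0524 to 0.135) and Slc7a11 was called only without KO1 replicate 1 (adjusted p of 0.0635 to 0.134 without each of the others).

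Among the other large tumour differences not called in cells, higher in KO1 were the mannosidase Man1c1, Rnf144b and Arhgap32, with log2 fold changes of 1.42, 1.36 and 1.34. Lower were Dio2, which activates thyroid hormone, Cttnbp2, the neuropeptide gene Npy and the stress gene Ddit4, with log2 fold changes of -3.15, -2.39, -1.93 and -1.64. Of 24 named genes called in tumours, Zfp799, Cps1, Ptk2b, Lgals3bp and Serpine2 were the 5 called without each tumour library in turn.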

How the data were processed

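RNA of Myc-CaP cells and tumours was sequenced as 50 bp paired reads from stranded TruSeq libraries, per the labels. The authors deposited estimated counts per gene and a length-scaled table of the same estimates. Per the submitters' processing notes the tools were Trim Galore 0.6.7, STAR and Salmon 1.5.2 with GRCm38; which settings they used is not given in the sources used here.

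Estimated counts were rounded to whole numbers. Of 45706 genes, 45143 had a GENCODE M21 position. Genes kept by filterByExpr (12254 in cells, 14483 in tumours, 15173 in the joint model) were scaled by TMM and tested with edgeR 4.0.16 (R 4.3.3) by the quasi-likelihood F test, with Benjamini-Hochberg adjustment at 0.05. CPM are TMM-scaled within cells or within tumours, so levels are compared within a material. The joint model tested the difference of differences. Genes were named as the 12 largest called rises and falls averaging 2 or more on the log2 CPM scale, up to 6 genes near silent (3 counts or fewer) in each line, up to 3 called genes of each list by smallest p, up to 8 a direction called in both materials, 5 a direction called in tumours alone and up to 6 a direction of the joint model, leaving out predicted genes, beside fixed genes such as Ern1 and Xbp1. A fixed gene and a marker are not reported here. Chromosome stretches held 41 tested genes. Exact 95% intervals cover counting error only. The members and gene lists were chosen with earlier results of these data known.

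The replicate pair with the lowest chi-square had 8.39 per degree of freedom, so no library was taken as deposited more than once. Replicate numbers were not used to pair the samples in the main fits. The alternatives were DESeq2 1.42.0, its size factors, the length-scaled table, no filter, fits of KO1 and KO2 alone or without KO3, a replicate block, host marker covariates and each library left out. Scripts were tested on simulated data, and figures were drawn with matplotlib 3.10.9.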

Additional observations from a re-analysis of the deposited data

Results flagged for a closer look

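The difference between KO1 and KO2 itself differed between tumours and cells in 16 genes, by the joint edgeR model at an adjusted p of 0.05, and the 10 of them named by rule are given here. The change in the KO1 minus KO2 difference, tumours minus cells on the log2 scale, was 2.99 for Mgat4a, 2.46 for Pard6g, 2.23 for Krt78, 1.61 for Tmc4, 1.07 for F2r and 0.978 for Frmd4a. It was -3.97 for Tns3, -1.34 for Rgs2, -1.23 for Car14 and -0.73 for Polb. None of the 10 kept its call in every alternative. Groups of 2 or 3 libraries were not examined for a single outlying library.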

How the results depend on the processing

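The number of genes called between KO1 and KO2 cells, 368, was 384 by DESeq2, 98 in the length-scaled table, 932 with no filter on low counts, 310 with KO1 and KO2 libraries alone, and 123 to 553 with 1 library left out. The 4675 genes called between KO1 and WT cells became 2991 to 3858, and the 4616 between KO2 and WT cells 2867 to 4045, with 1 library left out. The 96 calls between the tumours became 702 by DESeq2, 57 in the length-scaled table, 617 with KO1 and KO2 libraries alone and 13 to 43 with 1 library left out. The 16 calls of the joint model became 104, 8, 32 and 0 to 13 under those settings, and the 15 genes called in both materials 52, 5, 37 and 4 to 10. The cause of these changes was not tested.

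With a replicate block the counts were 328 in cells, 166 in tumours, 21 in the joint model and 20 in both materials. The main fits did not pair samples by replicate number. Over all genes the correlation of deviations between KO1 and KO2 was -0.0424 in cells and 0.0294, 0.0483 and 0.161 for the 3 numbers in tumours. Whether single genes were paired by number was not tested.

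Of 88 named genes called in cells 35 kept the call in all settings run for them, of 24 in tumours 4 did, and of 10 in the joint model 0 did, and none of these genes changed direction. Hspa5, which was not called, changed sign with 1 cell library left out, between -0.238 and 0.0505 on the log2 scale. Depth limits genes of few counts most, and with 2 libraries a line in cells the count of calls rests on single libraries.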
